A study of Saccharomyces cerevisiae with 9 samples.

Results

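The genes described here are GCN4 and 40 genes for the synthesis of arginine, the aromatic amino acids, threonine, glutamate and its amides, serine, isoleucine and valine, and proline in budding yeast. They were chosen by gene name among the gene spots of the arrays. All 41 names were found among 6256 genes, each with the signal of 1 gene's probe averaged over its spots, and all 41 were among the 5865 genes that passed the filter on dim signal.

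In yeast, Gcn4 is a transcription activator made when the cell runs short of amino acids, and it switches on genes of most amino acid pathways together, a response called general amino acid control. Its own output is set largely by translation, through short reading frames ahead of the GCN4 coding sequence, so its mRNA level is not a direct measure of its activity. Glutamate and glutamine, made from 2-oxoglutarate and ammonium, donate the nitrogen for the other pathways. Serine is made from a glycolytic intermediate, arginine and proline from glutamate, threonine from aspartate, and the aromatic amino acids from chorismate.

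RNA was measured on 9 Agilent arrays with 2 dyes. Each array carried RNA of 1 strain against a common reference, which pools RNA from glucose and ethanol cultures of the parents. The labels list the same components for the 3 replaced strains in other words, and whether the same preparation was used on their arrays is not stated, so each difference of YAD350, YLK804 or YLK806 from a parent may include a difference of reference. The laboratory strain BY4716 and the vineyard-derived RM11-1a had 3 arrays each, and there was 1 array each of YAD350, YLK804 and YLK806. YAD350 is BY4742 with the MKT1 D30G replacement, YLK804 is BY4724 with the RM allele of SAL1, and YLK806 is RM11-1a with the BY allele of SAL1. MKT1 encodes a regulator of mRNAs that differs between these strains, and SAL1 encodes a mitochondrial carrier for ATP and magnesium. All strains grew in yeast nitrogen base with 2% glucose and with leucine, lysine and uracil at 100, 100 and 20 mg/L, with histidine added at 20 mg/L for YAD350 alone. Arginine, the aromatic amino acids, threonine, glutamate and its amides, serine, isoleucine, valine and proline were not listed among the supplements.

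The strains carry different nutritional markers, and the arrays showed them. Relative to BY4716, RM11-1a was lower in URA3 (log2 difference -3.87) and in LEU2 (at least 19.5-fold), and higher in LYS2 by 4.12. YAD350 was lower in URA3 (-4.27), in HIS3 (-4.48) and in LEU2 (at least 21.4-fold), and YLK804 was lower in URA3 (-4.84). The bounds for LEU2, not well above background on any array of RM11-1a or YAD350, are on the normalized signal of the strain channel and not on the ratio. STE2, expressed in MATa cells, was higher in RM11-1a than in BY4716 by 4.96 and higher in YLK804 than in BY4716 by 4.73. YAD350 and YLK804 therefore differed from BY4716 in markers, and YLK804 also in mating type, beside the replaced allele, and these cannot be told apart. RM11-1a differed from BY4716 in markers and mating type as well, and these cannot be told apart from the rest of its background. The arrays do not read the replaced alleles themselves. The share of genes well above background ran from 89.5% to 93.9% over the arrays, with median strain signals of 237 to 424 and median local backgrounds of 25 to 32. The number of arrays limits the precision: the 3 replaced strains have 1 array each, whose spread is assumed to be that of the parental arrays, and nothing in the labels says whether replicates were separate cultures.

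Values are log2 ratios of strain to reference, so a value says how a gene in a strain stands against the same gene in the pool and cannot be set against another gene's level. Differences between strains are differences of these ratios with their standard error, and a gene is called where the adjusted p from limma over all genes tested was under 0.05. Over the 41 genes the SD between replicate arrays had a median of 0.045 in BY4716 and 0.075 in RM11-1a. The largest SDs were 0.14 in BY4716, for GLN1, and 0.464 in RM11-1a, for GLT1.

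**Figure D1:**
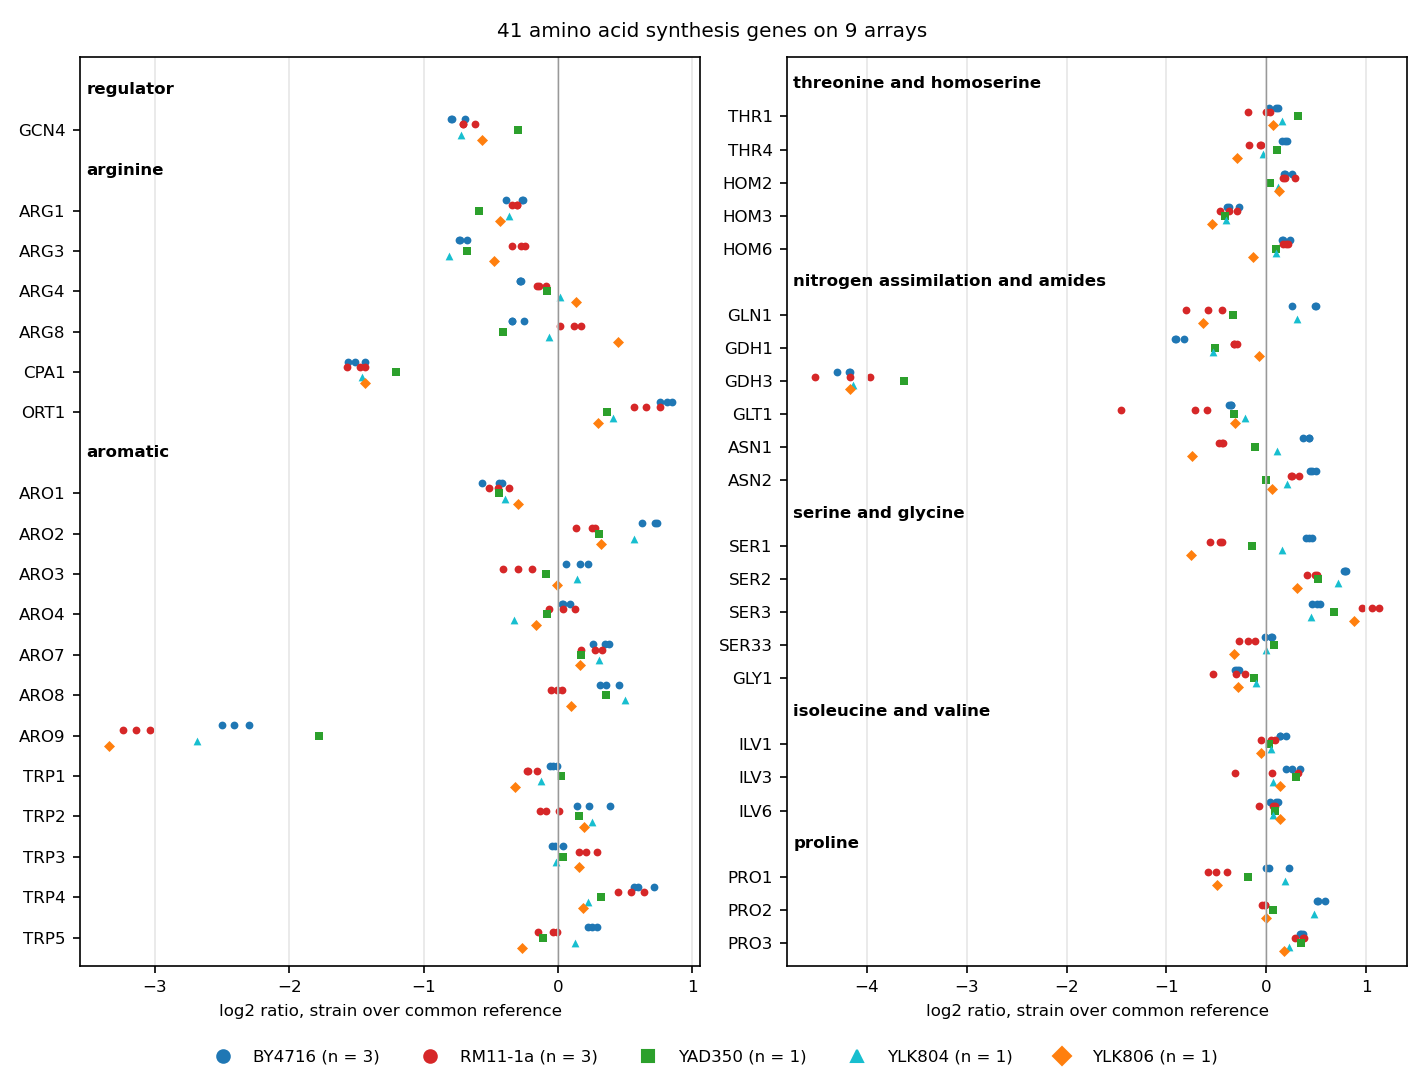
Log2 ratio of strain over common reference (x axis) for each of the 41 genes (y axis, grouped by pathway), 1 point per array, coloured by strain. SER1, ASN1, GLN1 and PRO2 show the 3 BY4716 arrays to the right of the 3 RM11-1a arrays without overlap, while the GCN4, CPA1 and PRO3 arrays of the parents overlap.

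The first question was how the pathways differ between the parental backgrounds. RM11-1a held less RNA than BY4716 for GLN1, ASN1 and ASN2 of the amides, SER1, SER2 and SER33 of serine synthesis, PRO1 and PRO2 of proline synthesis and 7 of 12 aromatic genes. It held more for GDH1, SER3 and 3 of 6 arginine genes, while GCN4 itself was not called. Of the 41 genes, 25 were called, 6 higher and 19 lower in RM11-1a, against a background of 63.0% of 5865 genes called, 33.1% higher and 29.9% lower. The median difference over the 41 genes was -0.13, beside 0.01 over all genes tested. The share called was close to that of all genes, so the count alone says nothing particular about amino acid synthesis. Every count between the parents given here for a pathway or list stands beside these same shares of all genes. The 3 arrays of the parents did not overlap for 24 of the 41 genes, and this was so for 70.2% of all genes. Of the 41 genes only GLN1 was called with a 2-fold difference, beside 335 of all 5865 genes.

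GCN4, the activator, had log2 ratios of -0.79, -0.69 and -0.80 in BY4716 and -0.70, -0.62 and -0.70 in RM11-1a. The parental arrays overlapped, with a difference of 0.09 ± 0.04 (95% interval -0.02 to 0.19, adjusted p = 0.128). Of 13 genes of the general control machinery, 8 were lower and 2 higher in RM11-1a, with a median of -0.21. They included GCN1 (-0.56 ± 0.04) and GCN20 (-0.49 ± 0.04), which help the sensor kinase Gcn2 detect uncharged tRNA, and GCD6 (-0.42 ± 0.04), a subunit of the exchange factor that this kinase restrains.

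The genes of nitrogen assimilation and the amides included the largest single differences between the parents: 4 of 6 were lower and 1 higher in RM11-1a, with a median of -0.37. GLN1, glutamine synthetase, which adds ammonium to glutamate, had log2 ratios of 0.50, 0.49 and 0.26 in BY4716 and -0.80, -0.44 and -0.59 in RM11-1a. All 3 BY4716 arrays lay above the reference and all 3 RM11-1a arrays below it. The difference was -1.02 ± 0.10, or 2.03-fold lower in RM11-1a (adjusted p = 9.25e-05). GDH1, the main NADP-dependent glutamate dehydrogenase, which makes glutamate from 2-oxoglutarate and ammonium, ran the other way. Its ratios were -0.91, -0.91 and -0.82 in BY4716 and -0.32, -0.32 and -0.29 in RM11-1a, so the groups did not overlap and RM11-1a was higher by 0.57 ± 0.04 (adjusted p = 1.21e-05). GDH3, its paralog known for expression on non-fermentable carbon, lay far below the reference pool in both parents, with -4.21 ± 0.08 (SD, n = 3) for BY4716 and, for RM11-1a, -4.22 ± 0.28 (SD, n = 3), and was not called.

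GLT1, glutamate synthase, which makes glutamate from glutamine, had ratios of -0.37, -0.35 and -0.35 in BY4716 and -1.45, -0.59 and -0.71 in RM11-1a. One RM11-1a array, replicate 7, stood well below the other two. The difference was -0.56 ± 0.20 (adjusted p = 0.0408), and without that array it was -0.29 (adjusted p = 0.00122). Leaving out any 1 BY4716 array ended the call, with adjusted p up to 0.0979 over the alternatives tried.

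The asparagine synthetases ASN1 and ASN2, which transfer the amide nitrogen of glutamine to aspartate, were both lower in RM11-1a. ASN1 had ratios of 0.42, 0.43 and 0.37 in BY4716 and -0.44, -0.47 and -0.43 in RM11-1a, a difference of -0.85 ± 0.04 (adjusted p = 9.96e-07). ASN2 had 0.50, 0.44 and 0.46 in BY4716 and 0.32, 0.25 and 0.26 in RM11-1a, a smaller difference of -0.19 ± 0.04 (adjusted p = 0.00316). Of 6 regulators and partners in nitrogen metabolism, 2 were higher and 1 lower in RM11-1a, with a median of -0.03. DAL80, a repressor of nitrogen catabolic genes, had a ratio difference of 0.15 ± 0.04, and in the strain channel, where it was not well above background in BY4716, it was at least 1.19-fold higher. URE2, which holds the activator Gln3 in the cytoplasm, differed by 0.11 ± 0.04, and GLN3 by -0.10 ± 0.04.

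In serine and glycine synthesis, 3 of 5 genes were lower and 1 higher in RM11-1a, with a median of -0.22, and the paralogs of the first step differed in opposite directions. SER3 and SER33 encode the paralogous dehydrogenases that take 3-phosphoglycerate out of glycolysis. SER3 had ratios of 0.54, 0.46 and 0.51 in BY4716 and 1.06, 0.95 and 1.13 in RM11-1a, higher in RM11-1a by 0.55 ± 0.05 (adjusted p = 6.03e-05). SER33 had 0.06, 0.05 and -0.01 in BY4716 and -0.18, -0.11 and -0.27 in RM11-1a, a difference of -0.22 ± 0.05 (adjusted p = 0.00544). Every RM11-1a array was on the high side for SER3 and on the low side for SER33. The SER33 call held under 16 of 18 alternatives.

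SER1, the phosphoserine aminotransferase of the second step, showed the second largest difference of the 41 genes. Its ratios were 0.46, 0.43 and 0.40 in BY4716 and -0.44, -0.47 and -0.56 in RM11-1a, so the parents lay on opposite sides of the reference, and the difference was -0.92 ± 0.04, or 1.89-fold (adjusted p = 1.92e-06). SER2, the phosphatase that completes serine, had 0.80, 0.78 and 0.79 in BY4716 and 0.51, 0.41 and 0.49 in RM11-1a, a difference of -0.32 ± 0.04. GLY1, threonine aldolase, which makes glycine from threonine, was not called (-0.06 ± 0.08). Of 9 further genes of serine, glycine and one-carbon metabolism, 5 were lower and 1 higher, with a median of -0.18, among them MTD1 (-0.57 ± 0.04), a folate dehydrogenase, and GCV3 (-0.50 ± 0.03) of the glycine cleavage system. The higher one was AGX1, which makes glycine from glyoxylate, at 2.26 ± 0.15.

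**Figure D2:**
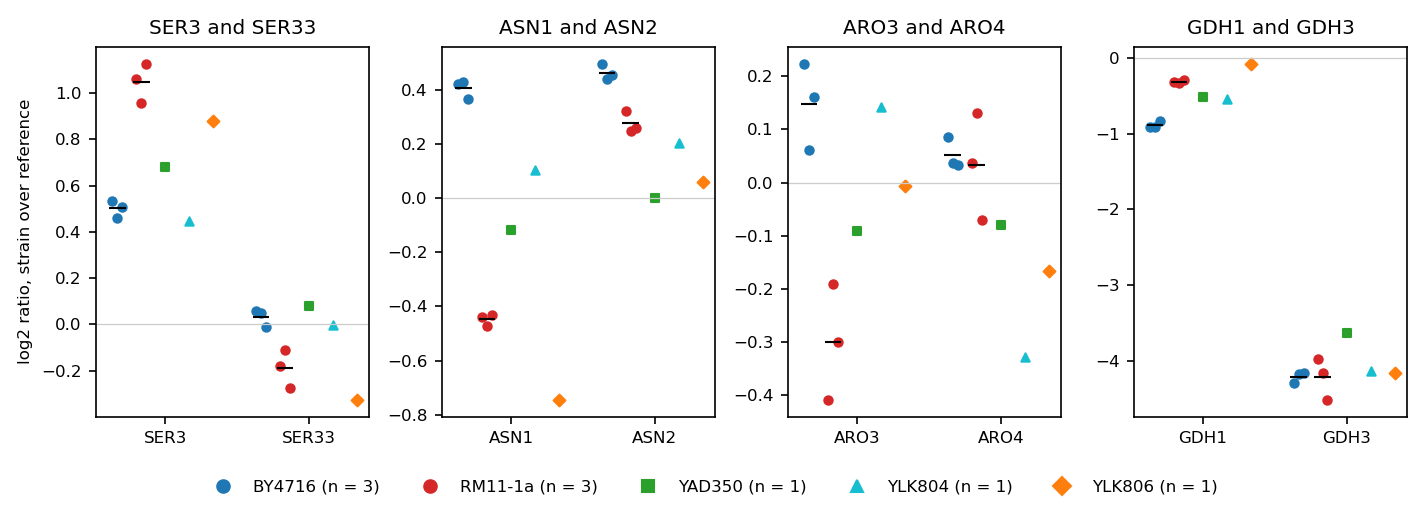
Log2 ratio of strain over reference (y axis) on each array for 4 pairs of paralogous enzymes, with strains by colour and the mean of the 3 parental arrays as a line; the y axes differ between panels. RM11-1a lies above BY4716 for SER3 and below it for SER33, and the gap between the parents is wider for ASN1 than for ASN2.

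The difference between the ratios of paralogous enzymes was also set out by strain. The SER3 ratio minus the SER33 ratio averaged 0.47 ± 0.05 on the BY4716 arrays and 1.24 ± 0.17 on those of RM11-1a (SD, n = 3 each). For ASN1 minus ASN2 the means were -0.06 ± 0.04 and -0.73 ± 0.04 (SD, n = 3 each), for ARO3 minus ARO4 they were 0.10 ± 0.06 and -0.33 ± 0.11, and for GDH1 minus GDH3 they were 3.33 ± 0.06 and 3.91 ± 0.29. In each of these pairs the arrays of the parents did not overlap, as was so for 70.2% of single genes. Each pair holds a gene already called between the parents. How far the probes of a pair share signal was not tested.

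Proline is made from glutamate in 3 enzymatic steps, and 2 of the 3 genes, those of the early steps, were lower in RM11-1a, with a median of -0.56. PRO1, gamma-glutamyl kinase, had ratios of 0.00, 0.03 and 0.23 in BY4716 and -0.40, -0.51 and -0.58 in RM11-1a, a difference of -0.58 ± 0.07 (adjusted p = 0.000299). PRO2, the reductase that acts next, had 0.51, 0.59 and 0.52 in BY4716 and -0.05, -0.01 and -0.02 in RM11-1a, a difference of -0.56 ± 0.04 (adjusted p = 1.15e-05). PRO3, the reductase of the last step, which also serves arginine breakdown, had overlapping arrays, with 0.35 ± 0.01 (SD, n = 3) for BY4716 and, for RM11-1a, 0.34 ± 0.05 (SD, n = 3), and a 95% interval of the difference of -0.09 to 0.08. All 4 genes of proline use were called, with a median of 0.05, where 63.0% of all genes were called. PUT4, the high-affinity proline permease, was higher in RM11-1a by 2.65 ± 0.08, PUT2 was higher by 0.24 ± 0.05, and PUT1, proline oxidase, and PUT3, the activator of the pathway, were lower, with PUT1 at -0.42 ± 0.06.

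Among the arginine genes, 3 of 6 were higher and 1 lower in RM11-1a, with a median of 0.08. ARG3, ornithine carbamoyltransferase, had ratios of -0.73, -0.68 and -0.74 in BY4716 and -0.25, -0.28 and -0.34 in RM11-1a, a difference of 0.42 ± 0.04 (adjusted p = 5.86e-05). ARG8, acetylornithine aminotransferase in the mitochondrion, had -0.34, -0.25 and -0.34 in BY4716 and 0.12, 0.17 and 0.01 in RM11-1a, a difference of 0.41 ± 0.05 (adjusted p = 0.000255). ARG4, argininosuccinate lyase, which releases arginine, differed by only 0.15 ± 0.03, although its BY4716 arrays, at -0.27, -0.28 and -0.28, lay below its RM11-1a arrays, at -0.16, -0.09 and -0.14. With arrays centred on their median in place of loess, ARG4 was not called (adjusted p = 0.086).

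The remaining genes of the arginine set counted above gave small or uncalled differences. ARG1, argininosuccinate synthetase, and CPA1, the small subunit of the arginine-specific carbamoyl phosphate synthetase, were not called, with 95% intervals of -0.12 to 0.09 and -0.11 to 0.12. ORT1, the mitochondrial ornithine exporter, had a marginal call at -0.15 ± 0.06 (adjusted p = 0.0479) that held under 8 of 18 alternatives. Of 9 other arginine genes all were called, 3 higher and 6 lower, with a median of -0.20, where 63.0% of all genes were called. ARG7, which recycles the acetyl group, differed by -1.02 ± 0.04, and CAR2, ornithine aminotransferase of arginine breakdown, by 0.67 ± 0.08.

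In aromatic synthesis, 7 of 12 genes were lower and 1 higher in RM11-1a, with a median of -0.24. ARO3 and ARO4 encode paralogous synthases of the first step, inhibited by phenylalanine and tyrosine respectively. ARO3 had ratios of 0.22, 0.06 and 0.16 in BY4716 and -0.41, -0.19 and -0.30 in RM11-1a, a difference of -0.45 ± 0.07 (adjusted p = 0.000649), while ARO4 was not called (-0.02 ± 0.05). ARO2, chorismate synthase, had 0.74, 0.62 and 0.72 in BY4716 and 0.25, 0.28 and 0.13 in RM11-1a, a difference of -0.47 ± 0.05 (adjusted p = 0.000156). ARO1, the multifunctional enzyme between them, and ARO7, chorismate mutase at the branch to phenylalanine and tyrosine, were not called, at 0.04 and -0.07.

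The aminotransferases ARO8 and ARO9 complete phenylalanine and tyrosine, and Aro9 also starts the breakdown of aromatic amino acids. ARO8 had ratios of 0.31, 0.46 and 0.35 in BY4716 and 0.03, -0.01 and -0.05 in RM11-1a, a difference of -0.38 ± 0.05 (adjusted p = 0.00026). ARO9, known to be induced by aromatic amino acids, had -2.41, -2.30 and -2.50 in BY4716 and -3.15, -3.04 and -3.24 in RM11-1a, the fourth largest difference of the 41 genes at -0.74 ± 0.07 (adjusted p = 6.06e-05). Both parents lay well below the reference pool for ARO9, and RM11-1a was the lower one on every array.

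The tryptophan branch held genes with opposite signs. TRP2 and TRP3 encode the components of anthranilate synthase, the entry to the branch. TRP2 was lower in RM11-1a, with a difference of -0.32 ± 0.07 (adjusted p = 0.00445), from 0.25 ± 0.12 (SD, n = 3) to -0.07 ± 0.07 (SD, n = 3). TRP3, whose product also carries a later activity of the branch, was higher by 0.23 ± 0.05 (adjusted p = 0.00356), from -0.01 ± 0.04 (SD, n = 3) to 0.22 ± 0.07 (SD, n = 3). TRP5, tryptophan synthase, was lower (-0.32 ± 0.05), TRP1, the isomerase, was lower (-0.17 ± 0.04), and TRP4, the phosphoribosyltransferase, was not called (-0.08 ± 0.06). Of 4 other aromatic genes, PHA2, prephenate dehydratase for phenylalanine, was higher (0.58 ± 0.03), TYR1, prephenate dehydrogenase for tyrosine, was lower (-0.34 ± 0.04), and 2 were not called, with a median of -0.04.

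The threonine genes had a median difference of -0.03. Only THR4, threonine synthase, of 5 genes was called, with ratios of 0.16, 0.20 and 0.19 in BY4716 and -0.06, -0.05 and -0.18 in RM11-1a and a difference of -0.28 ± 0.04 (adjusted p = 0.000902). HOM3, aspartate kinase, HOM2, the semialdehyde dehydrogenase, HOM6, homoserine dehydrogenase, and THR1, homoserine kinase, had differences between -0.13 and 0.01. For HOM6 the 95% interval ran from -0.08 to 0.09. Of the 3 isoleucine and valine genes, with a median of -0.13, ILV1, threonine deaminase, had a marginal call at -0.13 ± 0.05 (adjusted p = 0.0372) that held under 10 of 18 alternatives. ILV3, dihydroxyacid dehydratase, and ILV6, the regulatory subunit of acetolactate synthase, were not called. The ILV3 arrays of RM11-1a, at -0.31, 0.32 and 0.06, were widely spread, and without replicate 7 its difference went from -0.24 to -0.07.

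One scan day held both parents, as replicate 9 of each, and the 25 called genes all had the same sign within it, although these arrays also helped to make the calls. GLT1 was -0.24 there and ORT1 -0.28. In none of the 25 did the reference channel change more than the strain channel.

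The second question was whether the same differences appeared in strains measured apart from the parental arrays. YLK806 and YLK804 share no array with the parental comparison, were scanned on the same day and are both MATa. They carry the RM11-1a and the laboratory background with SAL1 alleles exchanged, and they differed in LEU2 and LYS2 as the parents did. Between them 17 of 41 genes were called, 4 higher and 13 lower in YLK806, with 41.1% of genes called in all, 22.1% higher and 18.9% lower. All 25 genes called between the parents had the same sign here, as did 95.7% of all genes called between the parents. Of the 25, 16 were also called here. The matching share over all genes called between the parents was not counted, so the 16 say nothing particular about these genes.

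The largest differences were close in both sets of arrays. GLN1 was 0.30 in YLK804 and -0.63 in YLK806, a difference of -0.93 ± 0.18 (adjusted p = 0.0049). SER1 was 0.16 and -0.75, a difference of -0.91 ± 0.07 (adjusted p = 0.000105), and ASN1 was 0.10 and -0.74, a difference of -0.85 ± 0.06 (adjusted p = 5.91e-05). The proline genes PRO1 (-0.68 ± 0.13) and PRO2 (-0.48 ± 0.06) were lower in YLK806 as they were in RM11-1a. GDH1 (0.46 ± 0.07), SER3 (0.43 ± 0.09), ARG3 (0.34 ± 0.07) and ARG8 (0.51 ± 0.09) were higher in YLK806.

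Some of the parental differences were smaller here and not called: ARO2 was -0.24 ± 0.09, ARO3 -0.15 ± 0.11, TRP2 -0.06 ± 0.12 and GLT1 -0.10 ± 0.35. The same held for ASN2 (-0.15), TRP3 (0.17), ARG4 (0.12), ORT1 (-0.12) and ILV1 (-0.10). None of the 41 genes was called for the difference between the parental comparison and this one, which the SAL1 contrast below tests. HOM6, not called between the parents, was called here (-0.23 ± 0.06). A sequence difference between RM11-1a and a probe would act alike in RM11-1a and YLK806, and this was not tested.

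**Figure D3:**
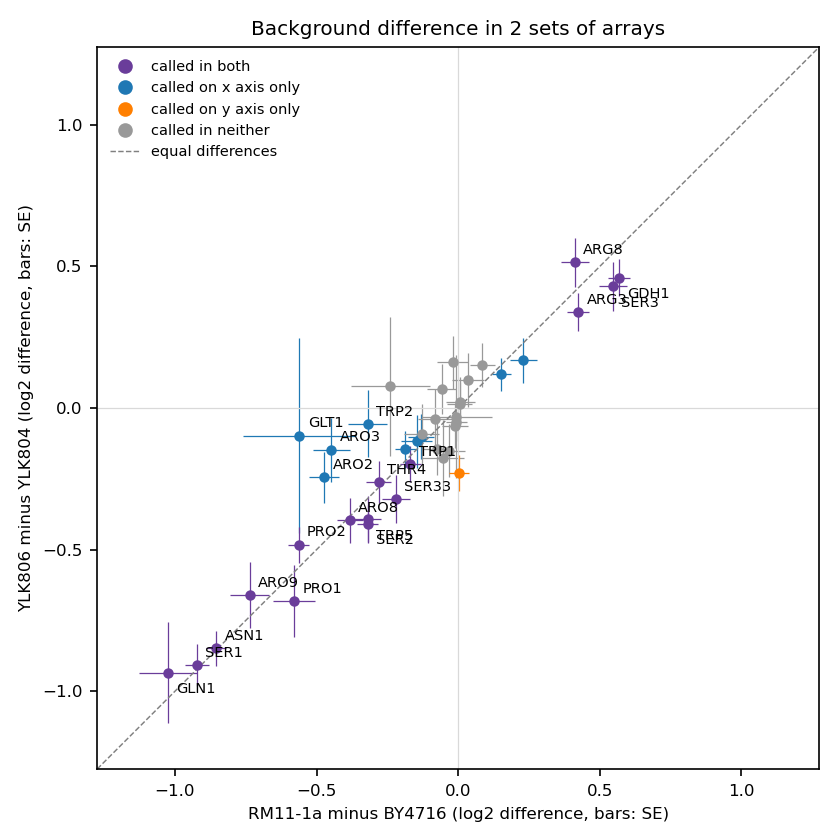
Log2 difference between the parents, RM11-1a minus BY4716 (x axis), against that between YLK806 and YLK804 (y axis) for the 41 genes, with bars for the standard error and colours for the calls. The points called in both, from GLN1 and SER1 at the lower left to GDH1 and SER3 at the upper right, lie near the line of equal differences. GLT1, ARO2, ARO3 and TRP2 are among those called between the parents alone.

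The third question was how YAD350, with the MKT1 D30G replacement, differed from BY4716. GCN4 and ARO9 were higher in YAD350, and among the genes lower there were GLN1, ASN1, ASN2, SER1, SER2 and PRO2. Of the 41 genes, 17 were called, 6 higher and 11 lower, with 47.1% of genes called in all, 26.6% higher and 20.5% lower. The median over the 41 genes was -0.08, beside 0.02 over all genes. With arrays centred on their median, 5 were higher and 15 lower. This comparison and the parental one share the BY4716 arrays, so their values are given side by side without a measure of agreement.

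GCN4 was -0.30 in YAD350, above all 8 other arrays, which lay between -0.80 and -0.57. The difference from BY4716 was 0.46 ± 0.06, or 1.38-fold higher (adjusted p = 0.00132), where RM11-1a differed by 0.09. It was called under all 16 alternatives tried. ARO9 was -1.78 in YAD350, also the highest of the 9 arrays, a difference of 0.62 ± 0.10 (adjusted p = 0.00205), where RM11-1a differed by -0.74.

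The other higher genes were GDH1 (0.37 ± 0.05), GDH3 (0.58 ± 0.18), CPA1 (0.30 ± 0.07) and ARG4 (0.20 ± 0.05). GDH3 was -3.63 in YAD350, and its call was lost under 6 of 16 alternatives. ARG1 was lower (-0.28 ± 0.06), so the last arginine steps, ARG1 and ARG4, differed in opposite directions.

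Lower were 3 of 6 genes of nitrogen assimilation and the amides, 2 of 5 of serine and glycine, 1 of 3 of proline, 3 of 12 aromatic and 2 of 6 arginine genes. GLN1 was -0.34 in YAD350, a difference of -0.75 ± 0.14 (adjusted p = 0.00497). SER1 was -0.15 (-0.58 ± 0.06), ASN1 -0.12 (-0.52 ± 0.05), ASN2 0.00 (-0.46 ± 0.05), PRO2 0.06 (-0.47 ± 0.05) and ARO2 0.31 (-0.39 ± 0.07). In each of these YAD350 lay below all 3 BY4716 arrays, and the share of all genes for which this was so was not counted. ORT1 (-0.44), TRP5 (-0.36), TRP4 (-0.31) and SER2 (-0.27) completed the list.

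Both dye channels were compared for these calls. In 9 of the 17 the Cy3 reference channel, whose pool is not stated to be the same preparation, changed more than the Cy5 strain channel. With the strain channel alone, ARG4, ORT1 and TRP4 took the opposite sign. For SER1 the strain channel changed by -0.08 and the reference channel by 0.50, while for GCN4 they changed by 0.31 and -0.15, for ARO9 by 0.59 and -0.04, and for PRO2 by -0.51 and -0.04. After subtracting the average shift of the SAL1 exchange arrays from their parents, an alternative chosen after seeing the data, 11 of the 41 genes were called. GCN4 was then 0.39 (adjusted p = 0.0085), ARO9 0.87 (adjusted p = 0.00275), GLN1 -0.69, PRO2 -0.46, SER1 -0.31 and ASN1 -0.22. The calls of GDH1 (0.077, adjusted p = 0.35), GDH3 (0.52, adjusted p = 0.0847), CPA1 (0.25), ORT1 (-0.065), ARG1 (-0.20), TRP5 (-0.20) and SER2 (-0.15) were lost, and ARG4 and TRP4 also lost theirs and took the opposite sign, while ARG8 (-0.39), ARO3 (-0.38) and SER3 (0.29) were called in addition. The MKT1 allele, the marker deletions, the added histidine and the scan day all go with the single YAD350 array and cannot be told apart.

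**Figure D4:**
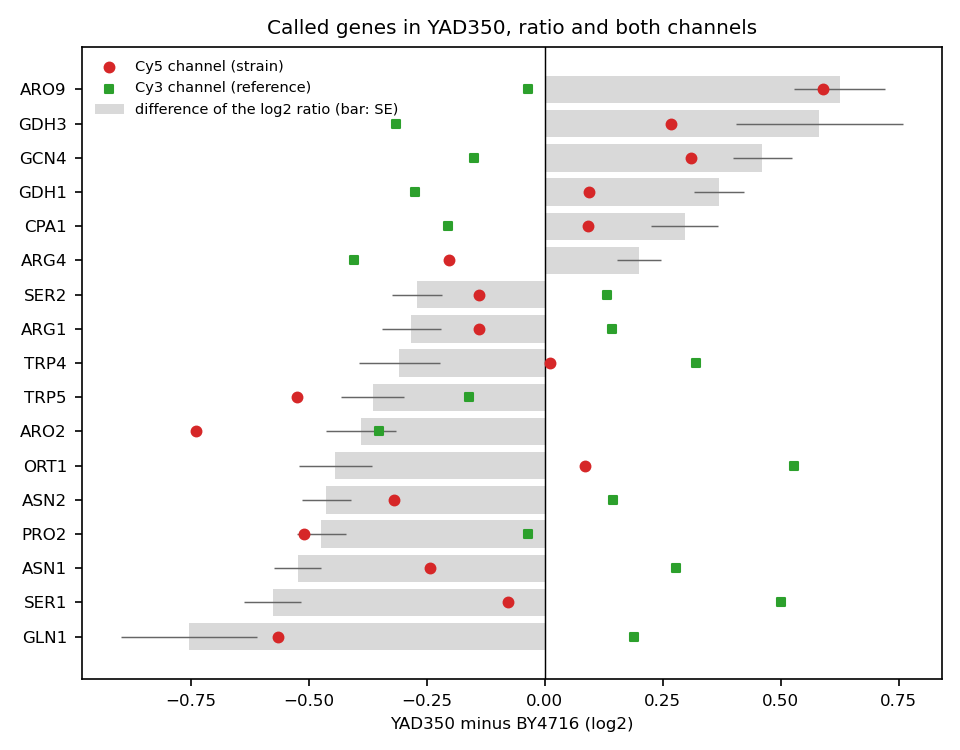
YAD350 minus BY4716 on the log2 scale (x axis) for the 17 called genes (y axis), with grey bars for the difference of the log2 ratio and its standard error, and points for the change of the Cy5 strain channel and the Cy3 reference channel. The strain channel carries most of the difference for ARO9 and PRO2, and the reference channel most of it for SER1, ORT1 and TRP4.

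The last question was the SAL1 exchange, made in both directions. The RM allele stood in the laboratory background in YLK804 and the BY allele in RM11-1a in YLK806. An effect of SAL1 that was alike in both backgrounds would take opposite signs against the background parents. An effect that differed between the backgrounds need not do so. Against BY4716, 10 of 41 genes were called in YLK804, 3 higher and 7 lower, with 21.1% of genes called in all, 11% higher and 10.2% lower. Against RM11-1a, 10 were called in YLK806, 3 higher and 7 lower, with 22.5% called in all, 10.8% higher and 11.8% lower.

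Of these genes 8, or 80% of each list, were called in both and all had the same sign, as did 695 of 706 genes called in both over the array, 56% and 52.7% of each list. ARG4 was 0.29 ± 0.05 in YLK804 and 0.26 ± 0.05 in YLK806, GDH1 0.34 ± 0.05 and 0.24 ± 0.05, and ARG8 0.24 ± 0.07 and 0.34 ± 0.07. ORT1 was -0.39 ± 0.08 and -0.36 ± 0.08, TRP4 -0.41 ± 0.09 and -0.36 ± 0.09, ASN1 -0.30 ± 0.05 and -0.30 ± 0.05, SER1 -0.28 ± 0.06 and -0.26 ± 0.06, and ASN2 -0.26 ± 0.05 and -0.22 ± 0.05. ARO4 (-0.38 ± 0.08) and THR4 (-0.21 ± 0.06) were called in YLK804 alone, and HOM6 (-0.32 ± 0.05) and ARG3 (-0.18 ± 0.06, adjusted p = 0.05, just under the threshold before rounding) in YLK806 alone.

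The Cy3 reference channel changed more than the strain channel in 9 of the 10 genes in YLK804 and in 6 of the 10 in YLK806. For SER1 it changed by 0.86 in YLK804 and 0.91 in YLK806, against ratio differences of -0.28 and -0.26. With the strain channel alone, ARG4, GDH1, ASN1 and SER1 took the opposite sign in both strains, ARG3 also did in YLK806, and ORT1, TRP4, ARO4 and THR4 also did in YLK804. With arrays centred on their median in place of loess, 0 genes were higher and 6 lower in YLK804, and 1 was higher and 5 lower in YLK806. Both arrays were scanned on 1 day and read with another version of the scanner software than the parental arrays, and the part of these differences in the calls was not tested.

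**Figure D5:**
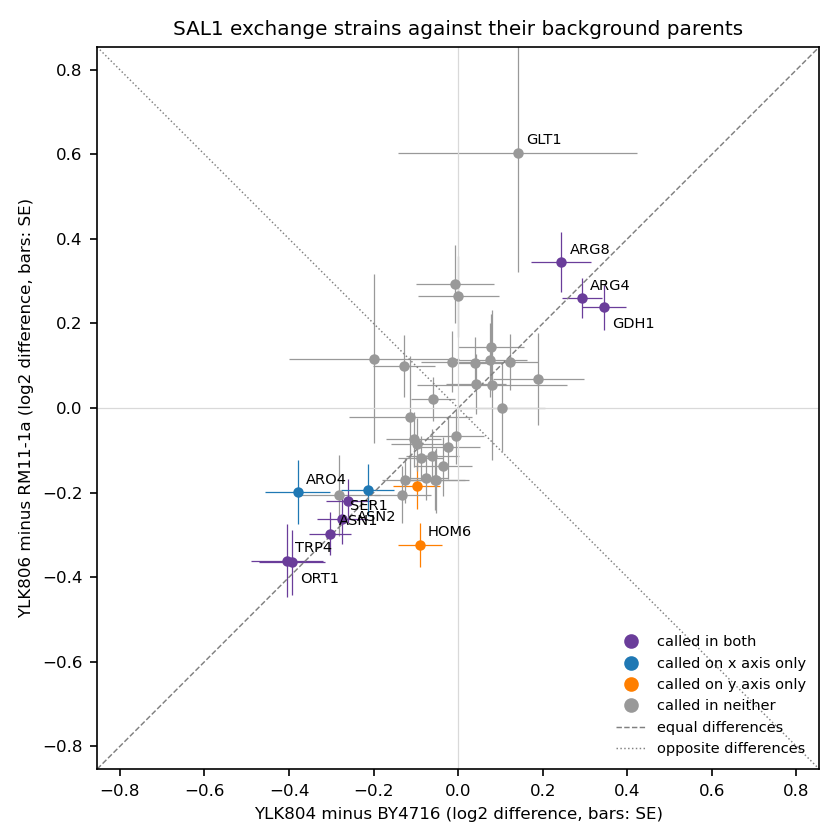
Log2 difference of YLK804 from BY4716 (x axis) against that of YLK806 from RM11-1a (y axis) for the 41 genes, with bars for the standard error, a dashed line of equal and a dotted line of opposite differences. The 8 genes called in both lie near the dashed line, with ARG4, ARG8 and GDH1 at the upper right and ORT1, TRP4, ASN1, ASN2 and SER1 at the lower left.

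The SAL1 contrast averaged over both backgrounds, RM allele minus BY allele, cancels by its construction any shift that both exchange arrays share. It does not cancel the differences of YLK804 from BY4716 in mating type and URA3, and the strain markers ran from -2.15 to 2.40 in it. What these differences add to the values below cannot be told apart from SAL1. None of the 41 genes was called in it by limma, 1 had an unadjusted p under 0.05, and 0.853% of all genes were called, 0.478% higher and 0.375% lower. The 95% intervals had a median half-width of 0.117, from 0.079 to 0.468, and 37 of 41 lay within -0.3 to 0.3. For the genes that differed most between the parents the intervals were -0.11 to 0.09 for SER1, -0.09 to 0.08 for ASN1, -0.28 to 0.19 for GLN1 and -0.03 to 0.14 for GDH1. GCN4 had an interval of -0.14 to 0.07. With the strain channel alone, 2 of the 41 genes were called, and ORT1 was 0.70 (adjusted p = 0.000343).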

How the data were processed

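RNA of 5 strains was measured on 9 Agilent arrays with 2 channels, read with Feature Extraction 8.5.1.1 or, for YLK804 and YLK806, 9.1.3.1, per the file headers. The deposited scanner files hold spot intensity in both channels and a log10 ratio of Cy5 over Cy3 that the software made, per the file headers. The authors' deposited value table holds log2 ratios that equalled the scanner's within 5e-04. Its scale and direction are thereby known, and column medians lay between 0 and 0.008. The genome build is not given in the sources used here, so no coordinates are printed, and sequences were not used here.

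Mean signals were corrected by normexp with an offset of 50, which draws ratios toward 0, and normalized by loess within arrays in limma 3.58.1 under R 4.3.3. Control and outlier spots were left out, and spots of a gene were averaged. Genes well above background on at least 3 of 9 arrays were kept. One model over 5 groups, with 4 residual degrees of freedom, was fitted with eBayes, with Benjamini-Hochberg adjustment over all genes tested and calls at an adjusted p under 0.05. It was tested on simulated data. Channel changes come from the same fit on each channel after Aquantile. A fold against a group not well above background is a bound on the strain channel's signal.

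Source names and channel labels put the strain in Cy5, while other labels of the 3 replaced strains put it in Cy3. It was read as Cy5, since these arrays correlated with their background parent over all genes at 0.806, 0.878 and 0.886. For every named gene list, counts, medians and at most the 3 genes with the smallest p are given, and all 41 genes are named; 1 other listed gene is not reported here. Of 80 other listed genes 80 were found, 4 of them by systematic name in the R64 annotation. The genes and lists were chosen with earlier results of these data known. Same-numbered parental arrays did not deviate together, with correlations of -0.209, 0.137 and -0.176 for numbers 7, 9 and 11, so the numbers were not taken as pairs. Alternatives were other background corrections, normalizations, filters and spreads, the strain channel alone, scan day (as a random block, chosen after seeing the data, too), and each parental array left out. Slides hold 1 array each, apart from BY4716 replicates 7 and 11, which share 1 slide and scan day. Figures were drawn with matplotlib.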

Additional observations from a re-analysis of the deposited data

Results flagged for a closer look

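Among the other listed genes, 2 had a background difference between the parents that differed from the one between YLK806 and YLK804, by the limma contrast of these differences. DLD3, a lactate dehydrogenase known as a target of retrograde signalling from mitochondria, was 0.39, 0.36 and 0.36 in BY4716, -0.54, -0.60 and -0.56 in RM11-1a, 0.48 in YLK804 and -0.98 in YLK806. Its parental difference was -0.93 ± 0.03 and that between the exchange strains -1.46 ± 0.06, which differ by 0.527 with a standard error of 0.068 (adjusted p = 0.0157). LEU2 gave 0.641 with a standard error of 0.099 (adjusted p = 0.0373), but in RM11-1a and YLK806 it was not well above background, so both differences are bounds and the contrast has no measured size. None of the 41 genes was among them.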

How the results depend on the processing

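Over 3936 values of the 41 genes under alternatives, 3720 kept their side of the threshold, 112 lost a call, 71 gained one and 33 reversed. Called genes among the 3720 also kept their direction. A change of sign in a gene called neither in the main fit nor in the alternative was not counted as a reversal. Such changes occurred: for GDH3 between the parents the difference ran from -0.129 to 0.143 with 1 array left out. Between the parents 22 to 26 genes of the 41 were called under all alternatives, and with the replicate number as a block in the 6 parental arrays it was 23, with 3400 genes in all. The block ended the calls of ORT1 and ILV1, and the numbers are not known to pair the arrays. For YLK806 minus YLK804 the count ran from 14 to 22.

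Counts moved by more than 1.5 times as follows, and the cause was not tested. For YAD350, 11 of the 41 genes and 1803 genes in all were called after subtracting the average shift of both SAL1 exchange arrays, and 1820 genes with the Cy5 channel alone, against 2755. For YLK804, median centring gave 6 of the 41 and 629 genes in all, against 1240. Leaving out 1 array gave 5 to 11 of the 41 and 590 to 1449 genes in all, with 5 and 590 without BY4716 replicate 7 and 623 genes without BY4716 replicate 11. For YLK806 against RM11-1a, median centring gave 6 of the 41 and 800 genes in all, against 1320, scaling between arrays gave 17 of the 41, and the Cy5 channel alone gave 18 and 2080 genes in all. Leaving out 1 array gave 856 to 1562 genes, with 867 and 856 without BY4716 replicates 7 and 11. For the averaged SAL1 contrast, with 50 genes called in all, scaling gave 80, the stricter signal filter 28, the Cy5 channel alone 383 with 2 of the 41, and scan day as a block 160. Leaving out 1 array gave 28 to 63, with 29 and 28 without BY4716 replicates 7 and 9.

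The counted reversals came mostly with the Cy5 channel alone. For YAD350 these were ARG4 (-0.20), ORT1 (0.085) and TRP4 (0.011), and after that subtraction ARG4 (-0.076) and TRP4 (0.075). For YLK804 they were ARG1 (0.45), ARG3 (0.30), ARG4 (-0.11), ORT1 (0.002), ARO4 (0.36), TRP4 (0.12), THR4 (0.058), GLN1 (0.54), GDH1 (-0.30), ASN1 (0.17), SER1 (0.58) and PRO1 (-0.47). For YLK806 against RM11-1a they were ARG1 (0.30), ARG3 (0.28), ARG4 (-0.17), ARO4 (0.51), ARO8 (-0.36), HOM2 (0.39), GLN1 (0.75), GDH1 (-0.20), ASN1 (0.36), SER1 (0.65) and PRO1 (-0.72). For YLK806 minus YLK804 they were CPA1 (-0.41) and TRP5 (0.20), and CPA1 (-0.28) with scaling, and for the SAL1 contrast ORT1 (0.70). Between the parents CPA1 reversed with scaling (-0.15).

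The planned promoter motif search and protein identities were not run, and scan day as a fixed block could not be fitted for comparisons whose arrays share no day. Depth is given by signal over background, and dim probes such as DAL80 and LEU2 give bounds only.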

Other observations

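Other pathways named in the lists differed between the parents as follows. Among 10 listed genes of 2-oxoglutarate supply and retrograde signalling, 3 were higher and 3 lower in RM11-1a, with a median of -0.04. DLD3 differed by -0.93 ± 0.03, CIT2, the peroxisomal citrate synthase, by -0.81 ± 0.06, and RTG2, a sensor of the retrograde pathway, by 0.28 ± 0.04. In YLK806, CIT2 was -4.49, below its RM11-1a arrays at -3.83, -3.65 and -3.70, while YLK804 at -3.00 lay within the BY4716 arrays at -2.88, -2.87 and -3.01. The averaged SAL1 contrast for CIT2 was 0.34 ± 0.06 (adjusted p = 0.0639 in limma), which misses the threshold.

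The leucine and branched-chain genes held 4 higher and 3 lower of 9 and a median of 0.20, with BAT1, the mitochondrial branched-chain aminotransferase, at 2.04 ± 0.08 and BAT2, its cytosolic paralog, at -1.97 ± 0.08. On no RM11-1a array was LEU2 well above background. The lysine genes held 2 higher and 3 lower of 9 and a median of -0.09, with LYS2, deleted in BY4716 by its known genotype, at 4.12 ± 0.07, LYS12 at -0.52 ± 0.09 and LYS5 at 0.24 ± 0.04. Of 7 histidine genes 5 were lower and 0 higher, with a median of -0.24, HIS4 at -0.56 ± 0.07, HIS7 at -0.35 ± 0.04 and HIS1 at -0.31 ± 0.04, where 29.9% of all genes were lower.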
